A study of Mus musculus with 8 samples.

Results

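Immediate early genes are transcribed within minutes of a stimulus, and many of them are also switched on while tissue is dissociated into single cells. The set described here holds 36 named genes of this kind, out of 39179 genes in the count tables. Its members were chosen by name, from a list of immediate early, stress and heat shock genes. No value in these data served as a rule for the choice, but earlier results of these data were known when it was made. Their RNA was measured in sorted astrocytes, a type of glia, of the mouse spinal cord.

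The data comprised 8 RNA-seq libraries from mixed Swiss-Webster mice at postnatal day 12 to 14. All 8 came from cells that carry the Aldh1l1-GFP reporter. The 4 control libraries (S1, S2, S6 and S7) came from cre-negative mice, labelled wild-type, and the labels do not say whether these mice carried floxed alleles. The 4 cKO libraries (S3, S4, S5 and S8) came from mice with Aldh1l1-cre and both Kir4.1 alleles floxed, a conditional knockout of the potassium channel that Kcnj10 encodes. The regulatory sequence of Aldh1l1, an astrocyte enzyme gene, drives the cre, so recombination can take place in any cell, in the cord or elsewhere, that has used it. In every library the cord was dissected, its meninges were removed, and the tissue was held in papain at 20 U per ml for 80 min at 33 °C before sorting. Both groups therefore went through the same stated dissociation, and no library of undissociated tissue was analysed here. By its title, the study asked how Kir4.1 in astrocytes bears on fast motor neurons and peak strength.

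As background, a stimulus such as calcium entry, a growth factor or stress activates kinases that act on factors already bound to DNA, among them SRF and CREB. These switch on the first wave of genes without new protein synthesis. The first wave encodes transcription factors (the AP-1, EGR, NR4A and KLF families) and also proteins that end the response, such as phosphatases, RNA-destabilising proteins and inhibitors of cytokine signalling. In astrocytes, Fos and Socs3 are known to respond to injury and cytokines, and enzymatic dissociation at a warm temperature is known to raise many of the same genes in glia.

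The stretches before the start sites of 5 members are shown because their groups did not overlap (Fos, Dusp1 and Socs3) or because a pair of genes is nearly identical (Hspa1a and Hspa1b). They are from RefSeq on GRCm38.p6 and read 5′ to 3′ on the gene's strand. Each covers the 250 bases before the RefSeq start, except that the Dusp1 stretch (203 bases) and the Socs3 stretch (165 bases) end before the first exon base that GENCODE gives the gene there. The coordinates are chr12:85473640-85473889 on the plus strand for Fos, and on the minus strand chr17:26508520-26508722 for Dusp1, chr11:117969452-117969616 for Socs3, chr17:34972157-34972406 for Hspa1a and chr17:34959239-34959488 for Hspa1b. Capitals mark TGACG or TGACGTCA in Fos and Dusp1, TTCNNNGAA in Socs3, and the 3 bases at which the Hspa1a and Hspa1b stretches differ.
Fos: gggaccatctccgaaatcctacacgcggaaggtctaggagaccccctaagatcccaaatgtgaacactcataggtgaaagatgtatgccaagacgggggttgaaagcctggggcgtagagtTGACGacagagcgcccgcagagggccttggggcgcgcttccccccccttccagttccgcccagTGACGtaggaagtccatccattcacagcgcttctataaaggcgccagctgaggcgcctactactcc
Dusp1: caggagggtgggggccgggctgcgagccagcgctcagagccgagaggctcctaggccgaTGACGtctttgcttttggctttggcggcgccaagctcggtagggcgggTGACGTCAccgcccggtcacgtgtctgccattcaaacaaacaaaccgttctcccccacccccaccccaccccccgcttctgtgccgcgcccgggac
Socs3: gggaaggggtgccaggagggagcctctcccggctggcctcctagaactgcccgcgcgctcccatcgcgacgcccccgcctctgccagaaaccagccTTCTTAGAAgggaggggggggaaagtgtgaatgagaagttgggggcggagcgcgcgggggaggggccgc
Hspa1a: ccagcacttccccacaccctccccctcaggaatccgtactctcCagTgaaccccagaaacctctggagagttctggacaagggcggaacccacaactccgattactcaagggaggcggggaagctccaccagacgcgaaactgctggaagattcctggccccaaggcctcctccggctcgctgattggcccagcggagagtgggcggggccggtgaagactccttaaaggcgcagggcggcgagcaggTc
Hspa1b: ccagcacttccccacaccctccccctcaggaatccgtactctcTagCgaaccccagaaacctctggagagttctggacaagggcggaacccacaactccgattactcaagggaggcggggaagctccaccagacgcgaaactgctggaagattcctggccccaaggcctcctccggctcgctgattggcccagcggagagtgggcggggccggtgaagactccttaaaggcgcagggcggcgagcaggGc

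RefSeq stretches were at hand for 30 of the 36 members and for 27025 genes in all. The letters TGACG, the core of the element that CREB and ATF factors bind, stood on either strand of 14 of 30 member stretches (46.7%) and of 17.9% of all stretches. The full palindrome TGACGTCA, which contains TGACG on both strands, stood in 3 members, Btg2, Dusp1 and Ppp1r15a (10.0%), against 1.62% of all. In Dusp1 the palindrome ran from position −143 to −136 before the start, and in Fos the TGACG matches began at −129 and −66. TTCNNNGAA, the spaced letters that STAT factors bind, stood in Socs3, Sgk1 and Zfp36, 3 of 30 members (10.0%), against 7.18% of all. The AP-1 letters TGANTCA stood in 0 member stretches and in 6.87% of all. The CArG box bound by SRF stood in Zfp36 alone (3.33%), against 1.40% of all. Member stretches had a median GC content of 65.0%, against 52.0% over all genes, and the matches describe letters in this window only.

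The targeted gene was read first. Kcnj10 stood at 1181 to 2306 CPM (counts scaled to a common number of gene reads per library, with an adjustment for composition) in control libraries and at 27.2 to 37.6 CPM in cKO libraries, a log2 fold change of −5.74 (SE 0.25, edgeR quasi-likelihood adjusted p = 7.52e-08). No library's label is contradicted by it. Wherever 4 values of a group follow each other, they stand in the order S1, S2, S6, S7 for control and S3, S4, S5, S8 for cKO. Libraries held 13892736 to 25065686 gene reads and 17312 to 20470 detected genes. Annotated rRNA, nuclear and mitochondrial together, took 23.8% to 32.6% of gene reads. Genes of the mitochondrial chromosome, their rRNA included, took 28.5% to 34.8% in control and 25.6% to 31.5% in cKO. Xist, which marks female cells in mice, was at 1817 CPM or more in control S1, S6 and S7 and cKO S4 and S8, and at 0.562 CPM or less in the other 3 libraries. The design gives 4 biological replicates a group, and edgeR's p-values weigh a difference between groups against the spread between libraries within them.

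Reads were found for 35 of the 36 members. Egr4 had 0 counts in every library, and with 4 more members (Egr2, Egr3, Nr4a2 and Npas4) it fell under the filter on low counts, so 31 members were tested among 14757 genes. The filter asked for at least 0.555 CPM in 4 libraries. Of the tested members, 16 passed that level in all 8 libraries, 7 passed it in 4 cKO but fewer control libraries, and 5 in 4 control but fewer cKO libraries.

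No member passed the test between control and cKO: of 31 tested, 0 reached an adjusted p under 0.05 in the quasi-likelihood fit of edgeR (Benjamini-Hochberg over all genes), against 0.318% of all genes tested. The lowest adjusted p of a member was 0.289. At an unadjusted p under 0.05, 3 members were higher in cKO (Dusp1, Socs3 and Fos), against 5.03% of all genes, and 0 were lower, against 4.77%. In the same 3 genes all 4 cKO libraries lay above all 4 control libraries, which held for 3.39% of all genes. In 0 members did all cKO libraries lie below all control libraries, against 2.94%. DESeq2 on the same counts called 1 member, Socs3, and limma-voom called 0.

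More members had a fold change above 0 than below, while none passed the test. The log2 fold change, cKO over control, was above 0 in 21 of 31 members (67.7%), against 48.4% of all genes tested. Its median was 0.30 over members and −0.02 over all genes. A difference of at least 2-fold was seen in 5 members higher in cKO (Socs3, Fos, Arc, Hspa1a and Fosb) and in 1 lower (Fosl2), together 19.4% of members against 11.2% of all genes. Hspa1b, at a log2 fold change of 1.0, lay just outside this limit before rounding. Scaling to library totals instead of composition-adjusted sizes moved the median of all genes to 0.09 and put 25 members above 0, with 58.0% of all genes above 0.

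**Figure D1:**
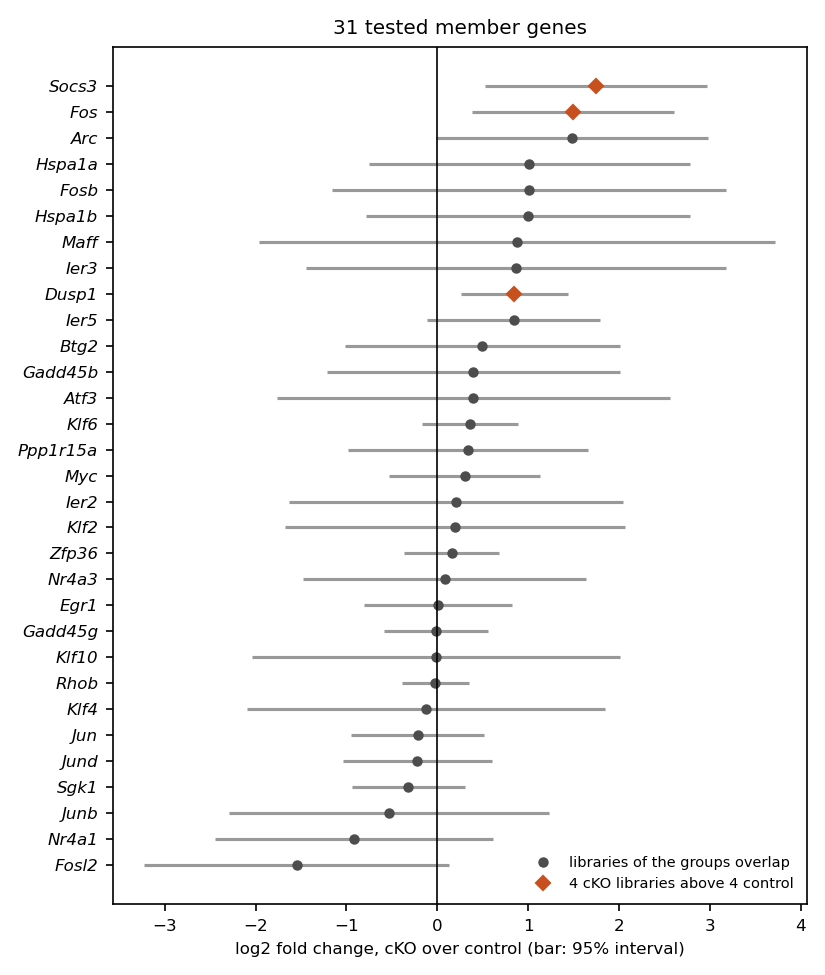
Log2 fold change (cKO over control, x axis) of each of the 31 tested members, with bars for the 95% interval from edgeR's fit. Diamonds mark the 3 members whose 4 cKO libraries lay above all 4 control libraries, at 1.75 for Socs3, 1.49 for Fos and 0.85 for Dusp1, and the intervals of the other 28 members cross 0.

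In absolute terms the set was dominated by a few genes. Per kilobase of exon, control libraries held the highest level of Rhob, a small GTPase that acts on the actin skeleton and on endosome traffic, at 148 CPM per kb ± 14.6 (SD, n = 4). This was percentile 99.4 of tested genes. Gadd45g, a growth arrest and DNA damage protein, followed at 29.8 CPM per kb ± 10.3 (SD, n = 4), percentile 96.0. Klf6, Jun, Sgk1, Dusp1, Zfp36 and Jund then held 7.63, 7.01, 6.98, 6.33, 6.24 and 5.61 CPM per kb, and neighbours in that order did not differ beyond their SDs. Fos itself held 1.47 CPM per kb ± 0.591 (SD, n = 4), percentile 31.2. The median tested member stood at percentile 29.1, and 9 tested members lay above the median of all tested genes. Several genes best known from active neurons were lowest: Npas4 reached at most 0.272 CPM, Egr3 0.272 CPM, Egr2 1.28 CPM and Nr4a2 1.46 CPM in any library.

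**Figure D2:**
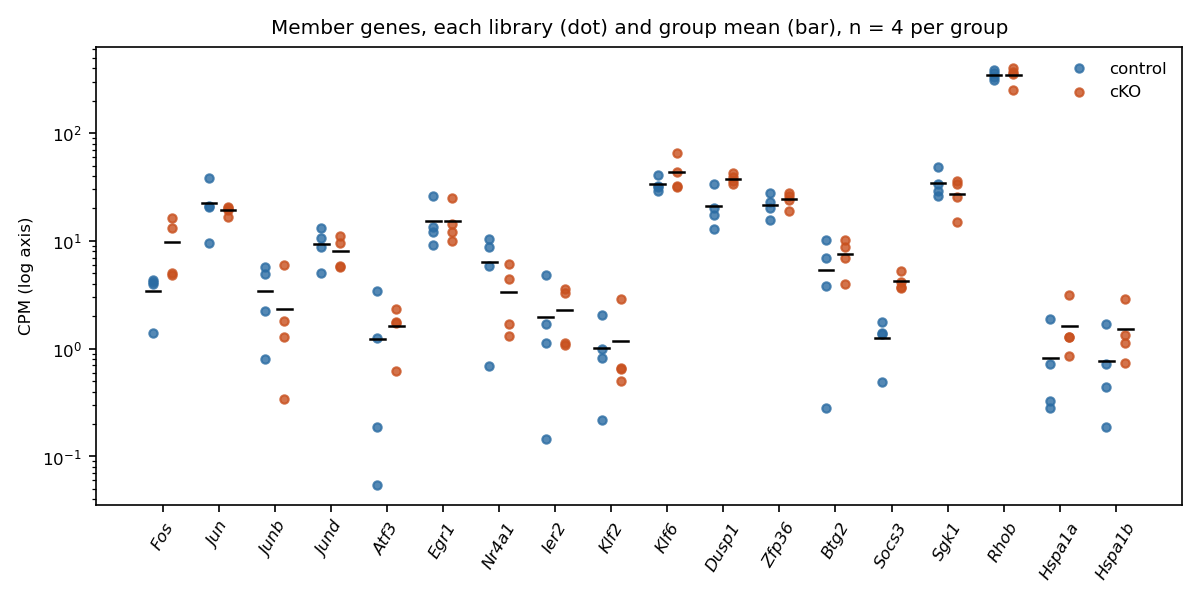
CPM (log axis) of 18 member genes in each library, with dots for libraries (4 control, 4 cKO) and bars for group means. Fos, Dusp1 and Socs3 are the members whose cKO dots all lie above the control dots, Rhob is the highest in both groups at 249 to 403 CPM, and Atf3, Nr4a1, Ier2 and Btg2 spread over more than 10-fold within the controls.

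Among the AP-1 genes, whose products pair through leucine zippers and bind DNA together, Fos stood apart. Fos (ENSMUSG00000021250, GRCm38 chromosome 12, 85473890 to 85477273, plus strand) was at 4.18, 1.38, 3.95 and 4.31 CPM in control and at 16.3, 4.99, 4.79 and 13.1 CPM in cKO. The groups did not overlap, but cKO S4 and S5 lay just above the highest control, and cKO S3 and S8 carried the difference in means. Control averaged 3.46 CPM ± 1.39 (SD, n = 4) and cKO 9.78 CPM ± 5.80 (SD, n = 4). This gave a log2 fold change of 1.49 (SE 0.52, interval 0.38 to 2.61, edgeR quasi-likelihood adjusted p = 0.337). The exact 2-sided permutation p was 0.0286, which is the lowest value possible with 4 libraries a group. Any gene whose groups do not overlap gives this value, as do Dusp1 and Socs3 below, so it adds nothing to that separation.

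The JUN partners of Fos did not separate the groups. Jun was at 20.5, 9.54, 20.9 and 38.5 CPM in control and at 19.5, 16.7, 20.7 and 20.2 CPM in cKO, so the cKO libraries lay inside the control range (log2 fold change −0.22, interval −0.95 to 0.52). Junb was at 5.70, 2.26, 4.89 and 0.805 CPM in control and at 1.28, 1.81, 0.342 and 5.95 CPM in cKO, with the highest and the lowest library both in cKO (−0.53, interval −2.30 to 1.23). Its log2 fold change was −1.56 without cKO S8 and −0.16 without cKO S5. Jund was at 5.07, 10.6, 8.73 and 13.1 CPM in control and at 5.67, 5.90, 11.1 and 9.50 CPM in cKO, again inside the control range (−0.22, interval −1.04 to 0.60). Jund shares 52.6% of its exon bases with Gm11175 on the opposite strand, Jun shares 7.28% with Junos and Junb shares 7.52% with Prdx2. The annotation release and strand setting of the counting are not given in the sources used here. How reads in these shared bases were assigned is therefore not known. Reads that the counting set aside as ambiguous, 0.72% to 0.93% per library, were not counted for any gene.

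The other leucine zipper genes spread widely. Atf3, a stress-induced repressor and activator, was at 1.27, 3.42, 0.0549 and 0.189 CPM in control and at 1.74, 2.31, 0.627 and 1.75 CPM in cKO. Both the highest and the lowest values were controls (log2 fold change 0.40, interval −1.76 to 2.56). Fosb ran from 0 CPM in control S7 to 6.44 CPM in cKO S3 (1.01, interval −1.16 to 3.18). Fosl2 ran from 0.171 CPM in cKO S5 to 10.9 CPM in control S7, with the lowest member log2 fold change, −1.55 (interval −3.23 to 0.13, edgeR quasi-likelihood adjusted p = 0.544). Maff, a small MAF protein, was at 0 CPM in control S7 and cKO S5 and at most at 2.63 CPM (0.88, interval −1.96 to 3.72). Of the 8 tested genes of this family, 4 had a log2 fold change above 0 and 4 below.

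Egr1, a zinc finger factor that is often used as an activity marker, had nearly the same mean in both groups. It was at 13.5, 12.2, 26.1 and 9.14 CPM in control and at 14.2, 12, 9.97 and 24.9 CPM in cKO. Means were 15.2 CPM ± 7.50 (SD, n = 4) and 15.3 CPM ± 6.66 (SD, n = 4). The log2 fold change was 0.0048 and its interval was −0.81 to 0.82, so a difference of up to that size either way is not excluded. One library in each group, control S6 and cKO S8, lay well above the rest. Fos and Egr1 thus differed in which libraries were high: cKO S3 held the highest Fos level and an ordinary Egr1 level, while control S6 held the highest Egr1 level and an ordinary Fos level.

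The NR4A genes encode orphan nuclear receptors. Nr4a1 was at 0.697, 10.3, 5.88 and 8.72 CPM in control and at 4.44, 1.68, 1.31 and 6.08 CPM in cKO, with control S1 the lowest of all 8 (log2 fold change −0.92, interval −2.45 to 0.61). Nr4a3 ran from 0.771 CPM in cKO S4 to 10.1 CPM in control S7 (0.08, interval −1.47 to 1.64). Arc, whose product acts at synapses and is known as a neuronal activity gene, was at 0.761, 1.38, 1.21 and 2.37 CPM in control and at 2.40, 4.67, 8.09 and 0.984 CPM in cKO. Its groups overlapped because of cKO S8 (1.49, interval −0.01 to 2.99, edgeR quasi-likelihood adjusted p = 0.516). cKO S8, with a high Fos level, held the lowest Arc level of its group.

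The IER genes encode short-lived nuclear and stress proteins. Ier2 was at 1.1, 0.146, 4.83 and 1.71 CPM in control and at 3.58, 1.09, 1.1 and 3.25 CPM in cKO. Control S2 was the lowest and control S6 the highest library (log2 fold change 0.21, interval −1.63 to 2.04). Ier3 ran from 0.171 CPM in cKO S8 to 8.66 CPM in cKO S5, so that its extremes were in 1 group (0.87, interval −1.45 to 3.18). Ier5 was at 9.06, 4.29, 1.81 and 5.45 CPM in control and at 8.68, 8.30, 10.2 and 9.72 CPM in cKO, with 1 control library, S1, inside the cKO range (0.84, interval −0.12 to 1.80, edgeR quasi-likelihood adjusted p = 0.562).

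Krüppel-like factors are zinc finger proteins with roles in quiescence, endothelial identity and injury. Klf6 was at 31.7, 29.3, 32.6 and 40.5 CPM in control and at 32.2, 65.0, 31.9 and 43.4 CPM in cKO, where cKO S4 stood above the other 7 libraries (log2 fold change 0.36, interval −0.17 to 0.89). Leaving out cKO S4 brought it to 0.09. Klf2 was at 0.824, 0.218, 2.03 and 0.995 CPM in control and at 0.664, 0.499, 2.91 and 0.642 CPM in cKO. The cKO mean rested on S5, and without S5 the log2 fold change turned from 0.20 to −0.75. Klf4 (−0.12, 0.171 to 5.54 CPM) and Klf10 (−0.02, 0 to 5.78 CPM) had their lowest value in cKO S5, where Klf2 was highest. Myc, a growth-promoting transcription factor, was at 3.68, 10.6, 5.22 and 6.11 CPM in control and at 7.35, 8.30, 6.90 and 8.99 CPM in cKO (0.30, interval −0.53 to 1.13).

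The genes that limit the response held the other separated members. Dusp1 (ENSMUSG00000024190, chromosome 17, 26505590 to 26562128, minus strand), a phosphatase that inactivates MAP kinases, was at 20.3, 17.4, 12.8 and 33.3 CPM in control and at 33.7, 38.9, 42.9 and 35.7 CPM in cKO. The groups did not overlap, but control S7 and cKO S3 were nearly equal. Control averaged 21.0 CPM ± 8.82 (SD, n = 4) and cKO 37.8 CPM ± 4.02 (SD, n = 4). On the log2 scale the difference was 0.85 (SE 0.27, interval 0.26 to 1.44), with an adjusted p of 0.289 by edgeR's quasi-likelihood test and an exact 2-sided permutation p of 0.0286. Leaving out control S7 brought the adjusted p to 0.0764, the lowest over the fits that left out 1 library.

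Socs3 (ENSMUSG00000053113, chromosome 11, 117966079 to 117970047, minus strand), which blocks JAK and STAT signalling below cytokine receptors, was at 1.77, 1.38, 0.494 and 1.37 CPM in control and at 3.68, 4.17, 3.76 and 5.31 CPM in cKO. Every cKO library held more than the highest control, and control S6 was the lowest. These levels rest on 9 to 29 reads in control and 66 to 124 reads in cKO. Means were 1.26 CPM ± 0.541 (SD, n = 4) and 4.23 CPM ± 0.75 (SD, n = 4), and the log2 fold change was 1.75 (SE 0.57, interval 0.53 to 2.97). The adjusted p was 0.292 by edgeR's quasi-likelihood test, 0.0214 by DESeq2 on the same counts and 0.282 by limma-voom, and the exact 2-sided permutation p was 0.0286. In the authors' deposited table, made with DESeq2, Socs3 had a log2 fold change of 1.23 and an adjusted p of 0.0169, Fos had 1.01 and 0.0908, and Dusp1 had 0.73 and 0.104. These fold changes are smaller than the mean counts beside them give (23.2 and 77.7 for Socs3), so they are not on the scale of those above. DESeq2 1.42.0 on the same counts gave 1.75 for Socs3, 1.49 for Fos and 0.84 for Dusp1.

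Socs3, Fos and Dusp1 did not take the same order over the cKO libraries. Fos was highest in cKO S3 and Socs3 in cKO S8, while Dusp1 was highest in cKO S5, where Fos was lowest of its group. As RNA was taken from bulk sorted cells, fewer cells of a type that uses a gene and less of its RNA per cell cannot be told apart for any member.

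The remaining attenuators differed by less than the spread between libraries. Zfp36, which directs AU-rich mRNAs to decay, was at 22.8, 28.0, 15.7 and 20.2 CPM in control and at 24.0, 18.8, 27.9 and 26.2 CPM in cKO (log2 fold change 0.16, interval −0.36 to 0.68). Btg2, an antiproliferative cofactor of mRNA deadenylation, was at 6.97, 3.79, 10.2 and 0.284 CPM in control and at 8.78, 6.94, 10.2 and 4.02 CPM in cKO. Control S7 alone was low, and without it the log2 fold change of 0.49 became 0.11. Ppp1r15a, which lifts the translation block of the integrated stress response, ran from 0.946 CPM in control S2 to 8.35 CPM in control S6 (0.34, interval −0.99 to 1.66). Gadd45b ran from 0.358 CPM in cKO S3 to 4.50 CPM in cKO S5 (0.40, interval −1.21 to 2.01), and Gadd45g from 23.6 CPM in control S1 to 51.9 CPM in control S7 (−0.01, interval −0.59 to 0.56).

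Rhob, the member with the highest level, had the narrowest interval. It was at 331, 309, 363 and 387 CPM in control and at 249, 366, 403 and 351 CPM in cKO. Its log2 fold change was −0.02 with an interval from −0.39 to 0.35, and its sign turned to 0.07 with library totals. Sgk1, a kinase that regulates ion transport and answers to glucocorticoids, was at 28.9, 25.9, 33.9 and 48.2 CPM in control and at 33.4, 25.6, 15 and 36.0 CPM in cKO, where cKO S5 was the lowest library (−0.32, interval −0.94 to 0.31).

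The inducible chaperone genes Hspa1a and Hspa1b, which answer to heat and misfolded protein, were low. Hspa1a was at 1.90, 0.728, 0.330 and 0.284 CPM in control and at 1.28, 1.27, 0.855 and 3.12 CPM in cKO. Hspa1b was at 1.71, 0.728, 0.439 and 0.189 CPM in control and at 2.91, 1.13, 0.741 and 1.33 CPM in cKO. In both genes control S1 lay among the cKO values, and the log2 fold changes were 1.01 (interval −0.76 to 2.78) and 1.0 (interval −0.79 to 2.78). The Hspa1a value was 0.49 without cKO S8 and 1.87 without control S1, and the Hspa1b value was 0.49 without cKO S3 and 1.76 without control S1. Their values are uncertain, because the pair is nearly identical: 58.8% of the 50-base windows of the Hspa1a transcript also occur in Hspa1b, and 62.3% the other way, and reads without a unique position were not counted. The stretches before their starts printed above were the same at 247 of 250 bases (98.8%). Hspa1a also shares 19.0% of its exon bases with Gm20481 on the opposite strand.

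The members varied more between libraries of 1 group than most genes did. The SD of log2 CPM within groups had a median of 0.99 over tested members and 0.49 over all tested genes. Low genes vary more, and the median mean level was 4.48 CPM over members against 11.4 CPM over all genes. Against tested genes in the same of 4 equal classes of mean CPM, 22 of 31 members lay above the median spread and 8 lay above the 90th percentile (Fosl2, Nr4a1, Fosb, Ier3, Btg2, Maff, Nr4a3 and Klf10). Among members with reads in every library, the highest library held from 1.62 times (Rhob) to 64.0 times (Fosl2) the lowest.

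**Figure D3:**
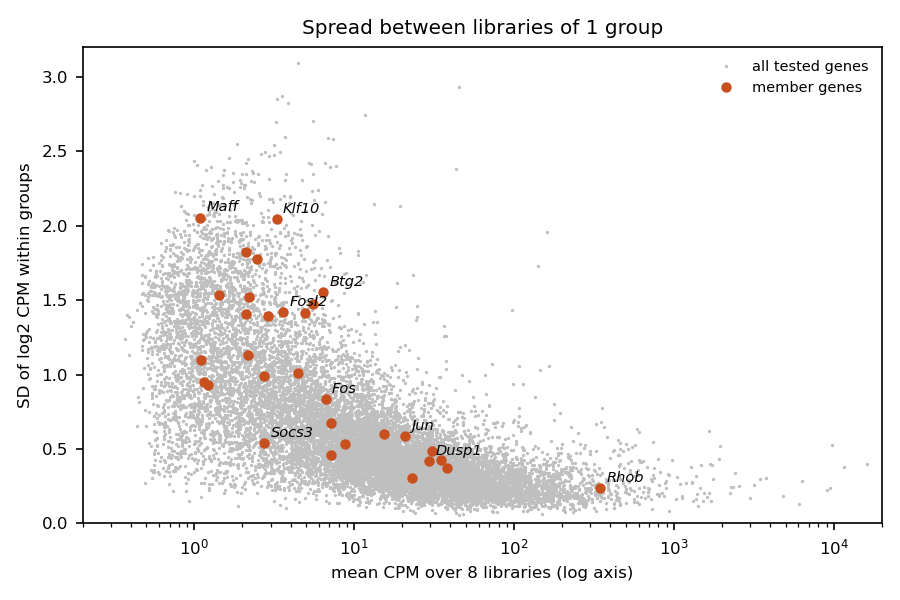
SD of log2 CPM within groups (y axis) against mean CPM over 8 libraries (log x axis), with gray dots for all tested genes and orange dots for the 31 tested members. Spread falls with level, and Klf10, Btg2 and Maff lie near the top of the cloud at their level while Rhob and Dusp1 lie within it. The axes leave out 13 genes.

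Read by library, the members did not form 1 block. Of 31 tested members, 22 lay above their own 8-library mean in cKO S3 and 26 in cKO S8, against 16 each in cKO S4 and S5. Control libraries had 14 (S1), 8 (S2), 17 (S6) and 15 (S7). Over all tested genes the same share ran only from 49.4% in cKO S5 to 54.7% in cKO S3. cKO S8, the deepest library, thus had most members slightly high, and control S2, the shallowest, had most slightly low. From shallowest to deepest, the libraries between them were control S1, cKO S5, cKO S3, control S6, control S7 and cKO S4. In that order, 14, 16, 22, 17, 15 and 16 members lay above their own mean. The part of depth and of single libraries in the result was not tested. The summed level of all members without Rhob ran from 217 to 323 CPM in control and from 281 to 330 CPM in cKO, so control S7 overlapped the cKO libraries. cKO S5 and control S7 each held the highest value of 7 members, and they also held the highest value of 20.6% and 20.0% of all tested genes.

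**Figure D4:**
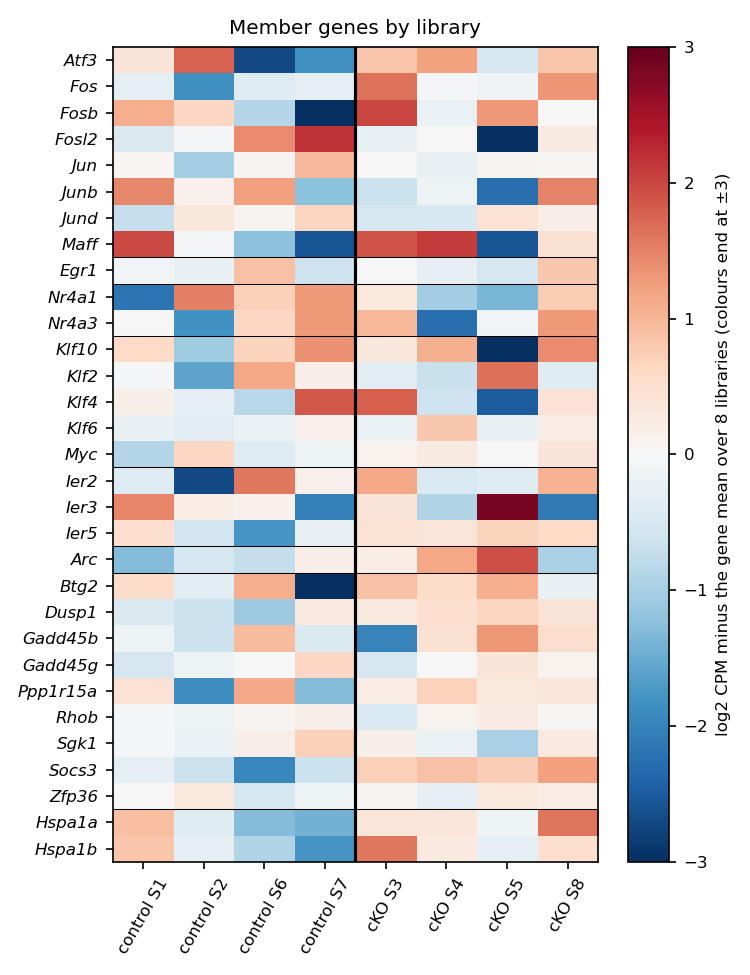
Log2 CPM of the 31 tested members (rows, grouped by family) in each library (columns) as the difference from the gene's mean over 8 libraries, with colours ending at 3 either way. Red and blue alternate along most rows within both groups, and Fos, Socs3 and Dusp1 are the rows in which all 4 cKO columns lie above all 4 control columns.

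Whether the members varied together was described with Fos as the reference. Over 8 libraries, 1 of 30 members, Ier2, had a Pearson r with Fos of at least 0.7, against 1.37% of all tested genes. Ier2 had r = 0.763 (exact 2-sided permutation p = 0.0299 and adjusted p = 1.0 over all genes, Benjamini-Hochberg) and Spearman rho = 0.286 (exact permutation p = 0.501). Without cKO S3 and control S2, the 2 libraries farthest from the Fos median, r was 0.308. Leaving these out narrows the range of Fos, which by itself can lower r. This value therefore cannot tell whether the relation rests on those libraries. The median r with Fos was 0.227 over members and 0.0211 over all genes. Since the groups did not overlap for Fos, though it did not pass the test, r was also taken on deviations from the group means. On these, 4 members (Nr4a3, Ier2, Sgk1 and Klf4) reached 0.7, against 4.11% of all genes, with Ier2 at 0.830. For r over the 8 libraries, 0 genes passed an adjusted p of 0.05 (exact permutation, Benjamini-Hochberg). For r on deviations no p was computed.

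The 10 genes most like Fos over the 8 libraries, among 10022 tested genes with a mean of at least 5 CPM, were Snx17, Ildr2, Med13l, Mllt3, L3mbtl3, Tbc1d15, Pibf1, Noc4l, Vim and Mrps25. Their r ran from 0.950 to 0.881, and none of the 10 is a member. Over the 465 pairs of tested members the median r was 0.0337. A value of 0.7 or more was reached by 22 pairs (4.73%), against 4.36% of all gene pairs, and −0.7 or less by 13 pairs (2.80%), against 4.1%. The highest pair was Fosl2 with Sgk1 at 0.927, both lowest in cKO S5, and the next was Ier5 with Socs3 at 0.905. These values describe 8 libraries that share their processing and carry no test.

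**Figure D5:**
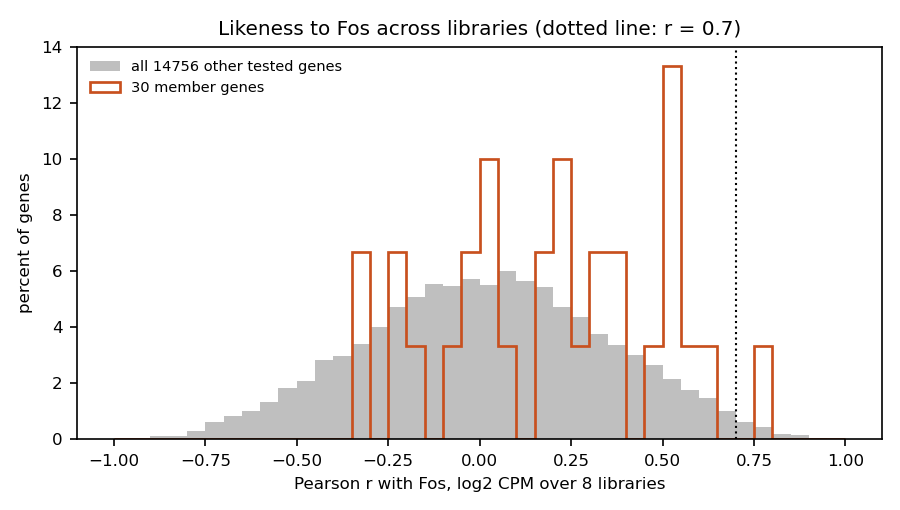
Share of genes (y axis, percent) by Pearson r with Fos over 8 libraries (x axis), with gray bars for the 14756 other tested genes and an orange outline for the 30 other members. The dotted line marks 0.7, beyond which lie 1 member and 1.37% of all genes.

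Other genes of the same pathways were read from 9 lists of stress and signalling genes with 122 tested genes. In the edgeR fit 0 of them reached an adjusted p under 0.05. At an unadjusted p under 0.05, 7 were higher and 11 lower in cKO, together 14.8% against 9.81% of all genes. DESeq2 called Id3, Rnd3 and Txnip. The groups did not overlap in 4 genes higher and 4 lower in cKO, 6.56% against 6.34% of all genes. Their median log2 fold change was 0.11.

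Among upstream regulators (20 tested, 17 with a log2 fold change above 0, median 0.24) the lowest p-values were those of Rps6ka1, Mef2d and Crtc1. Rps6ka1, a kinase below ERK, had a log2 fold change of 2.76, but cKO S5 at 23.3 CPM stood far above the other 7 libraries, which held 0.317 to 3.58 CPM. Mef2d, an activity-regulated transcription factor, had 0.35, and Crtc1, a CREB coactivator, had 0.45. In the ERK feedback list (13 tested), Dusp16, a phosphatase of JNK and p38, was at 14.3, 11.6, 21.9 and 18.5 CPM in control and at 4.90, 8.94, 7.47 and 11.1 CPM in cKO. Its groups did not overlap, with cKO below control, the opposite direction to Dusp1 (log2 fold change −1.03, SE 0.33, edgeR quasi-likelihood adjusted p = 0.279). Etv5 had 0.40 and Spry2 0.35.

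The heat shock list (16 tested, 10 above 0, median 0.13) held Hsph1, a chaperone that assists HSP70, at 94.4 CPM ± 5.75 (SD, n = 4) in control and 66.8 CPM ± 13 (SD, n = 4) in cKO. Its cKO libraries all lay below its control libraries, with a log2 fold change of −0.50 (edgeR quasi-likelihood adjusted p = 0.337), the opposite sign to Hspa1a and Hspa1b. Bag3 had 0.39 and Hspe1 −0.33. In the list for the integrated stress and unfolded protein responses (11 tested, median −0.05), Herpud1 had −0.67, Vldlr −0.75 and Asns −1.28. Among targets of SRF and YAP (13 tested, median 0.02), Actg1 had −0.42, Actb −0.43 and Thbs1 −0.95.

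Among other bZIP genes (10 tested, median 0.22), Nfe2l2, the regulator of antioxidant genes, was higher in all 4 cKO libraries, at 71.4 CPM ± 12.8 (SD, n = 4) against 51.2 CPM ± 5.89 (SD, n = 4), a log2 fold change of 0.48 (edgeR quasi-likelihood adjusted p = 0.376). Bach1 had −0.79 and Maf −0.63. In the oxidative and metal list (12 tested, median −0.04), Txnip, an inhibitor of thioredoxin, had the lowest p. It was at 10.8, 4.95, 26.6 and 25.4 CPM in control and at 2.30, 4.13, 2.74 and 4.54 CPM in cKO. Its groups did not overlap. The log2 fold change was −2.30 (SE 0.50, edgeR quasi-likelihood adjusted p = 0.0856). Txnip passed the threshold with either other filter on low counts and without control S2, its lowest control. Nqo1 had 1.61 and Mt2 0.57.

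Among later activity genes (19 tested, median 0.13), Rnd3, a relative of Rhob that lacks GTPase activity, was at 16.8 CPM ± 5.76 (SD, n = 4) in control and 6.95 CPM ± 1.3 (SD, n = 4) in cKO (log2 fold change −1.27, edgeR quasi-likelihood adjusted p = 0.151). Id3, an inhibitor of basic helix-loop-helix factors, was at 42.0 CPM ± 5.79 (SD, n = 4) and 65.9 CPM ± 4.03 (SD, n = 4), with no overlap (0.65, edgeR quasi-likelihood adjusted p = 0.174). Plk3 had −4.29, which rests on control S7 at 93.6 CPM, since the other 3 controls held 2.28 to 3.28 CPM and the cKO libraries 0.086 to 2.86 CPM. Of 20 NF-κB and cytokine genes, 9 were tested and 3 lay above 0 (median −0.24), and Bcl3 (1.72), Nfkbiz (0.27) and Rel (−0.30) had the lowest p-values.

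Markers of other cell types moved with the groups in part. Astrocyte markers summed to 25445 to 43680 CPM in control and 31112 to 39062 CPM in cKO, and all 14 were detected. Aldh1l1, whose regulatory sequence drives the reporter used for the sort, was higher in cKO, with a log2 fold change of 1.01 (edgeR quasi-likelihood adjusted p = 0.0179), as was the water channel Aqp4 at 1.09 (0.0243). Neither call remained without control S2, control S6 or cKO S4, and the Aqp4 call was also lost without control S7, cKO S5 or cKO S8. Microglial markers summed to 29.9 to 53.8 CPM in control and 38.8 to 71.8 CPM in cKO, with 9 of 12 higher on average in cKO and the highest sum in cKO S3. The 10 endothelial markers summed to 271 to 472 CPM in control and 464 to 818 CPM in cKO, most of it from the glucose transporter gene Slc2a1, whose cKO libraries all lay above its control libraries (log2 fold change 1.01, edgeR quasi-likelihood adjusted p = 0.156, called by DESeq2). The other 9 summed to 44.3 to 73.6 CPM in control and 24.3 to 57.6 CPM in cKO, and 1 of 9 was higher on average in cKO. Of the oligodendrocyte (10), OPC (7) and fibroblast (6) markers, 0 were higher on average in cKO. No marker stood at 0 in all libraries, and the part of these cells in the members' values was not tested.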

How the data were processed

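RNA-seq of 8 sorted astrocyte libraries, 4 control and 4 cKO as grouped by the sample titles, was read from the files the authors deposited. Per the submitters' processing notes, FastQC 0.11.4, TopHat2 2.0.11, Bowtie2 2.2.3, HTSeq 0.6.1p1, DESeq2 1.14.1, Cuffnorm and Cufflinks 2.2.1 were used on GRCm38. The annotation release and strand setting are not given in the sources used here. The authors deposited whole-number counts for 39179 genes per library. The 5 summary lines of each count table (56.4% to 61.7% of reads) were left out. The authors also deposited FPKM values, fragments per kilobase scaled to depth. Only 3 of 8 FPKM columns followed the count library of the same name, while all 8 matched a library of their own group, so FPKM were used by group only and each library's value is from the counts. The deposited DESeq2 comparison holds, per the file headers, mean counts scaled by size factors (a signal), a log2 fold change with its standard error and statistic (a score), and p-values with adjusted p-values. As 27 of its symbols read as dates, genes were joined by Ensembl identifier.

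The test on counts was the quasi-likelihood test of edgeR 4.0.16 (TMM, filterByExpr with a minimum count of 10) in R 4.3.3, with Benjamini-Hochberg adjustment over 14757 genes, a threshold of 0.05 and a standard error taken from the F statistic. Intervals are at 95%. Spread and correlations used log2 CPM with a prior count of 2, and permutation p-values for r came from all 40320 orders of the libraries. Levels per kilobase used the union of exons in GENCODE mouse release 21. Alternatives were other size factors, filters on low counts, DESeq2 1.42.0, limma 3.58.1 (voom, and FPKM with pseudocounts of 0.1 and 1), Xist as a covariate and leaving out each library. The script was tested on simulated data. Figures were drawn with matplotlib 3.10.9 in Python 3.11.15.

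The members and all lists were chosen with earlier results of these data known. Every member is accounted for, and the value in every library is given for 17 members set by name and for any member that passed the threshold or whose groups did not overlap; other members show some or all of their libraries. Of the related lists, members past the threshold and up to 3 with the lowest p are named, and of all other genes the 10 most like Fos.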

Additional observations from a re-analysis of the deposited data

Results flagged for a closer look

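In 3 cases a single library lay far from the rest of its group. Fos was at 1.38 CPM in control S2, below 3.95 to 4.31 CPM in the other 3 controls. Ier3 was at 8.66 CPM in cKO S5, above 0.171 to 1.48 CPM in the other 3 cKO libraries. Klf2 was at 2.91 CPM in cKO S5, above 0.499 to 0.664 CPM in the other 3. The gap to the nearest library, as a share of the whole range of the group, was 0.88, 0.85 and 0.93, above the critical value of 0.829. Of 62 groups examined (31 members in control and in cKO), chance flags about 1 in 20, or 3.1, so the number of such cases is no more than chance gives.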

How the results depend on the processing

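No paired analysis was possible because the control and cKO libraries share no replicate number. The median member log2 fold change stayed above 0 in every alternative (0.13 to 0.39, and 0.19 to 0.40 when 1 library was left out), and that of Kcnj10 stayed between −6.12 and −5.61. The number of members past the threshold was 0 in all alternatives but DESeq2, which gave 1 (Socs3), and was 0 to 0 when each library was left out in turn. Of the genes in all related and marker lists, 2 passed in the edgeR fit (Aldh1l1 and Aqp4), 3 with either other filter on low counts (Txnip added), 11 with DESeq2, 0 with FPKM at either pseudocount, and 0 to 2 with 1 library left out (Txnip alone without control S2). Members with r of at least 0.7 with Fos numbered 4 on deviations from group means and 0 without the 2 libraries farthest from the Fos median, an alternative chosen after seeing the data. Signs turned for log2 fold changes close to 0: Rhob with library totals (0.074) and with Xist as a covariate (0.016), Klf2 with limma-voom (−0.021) and with Xist (−0.14), and Jun with FPKM at a pseudocount of 0.1 (0.0016). Leaving out 1 library gave −0.34 to 0.40 for Egr1, −0.18 to 1.17 for Ier2, −0.75 to 0.77 for Klf2, −0.0040 to 1.68 for Atf3, −0.10 to 0.11 for Rhob −0.47 to 0.19 for Jun, −0.43 to −0.0070 for Jund, −1.37 to −0.59 for Nr4a1, 0.11 to 1.03 for Btg2, 0.09 to 0.49 for Klf6, 0.03 to 0.31 for Zfp36 and −0.47 to −0.10 for Sgk1. The cause of these changes was not tested. Over all genes, 47 passed in the edgeR fit, 384 with DESeq2, 62 with library totals, 87 with a filter of 1 count in any library, 84 with 10 counts in every library, 28 with Xist, 11 and 12 with FPKM, and 4 (without cKO S4) to 45 with 1 library left out. With 10 counts in every library only 16 members were tested and Socs3 had no value. Many members had under 5 CPM. In some of them 1 library set much of a group mean, as cKO S5 did for Ier3 and Klf2. In others it did not: the cKO libraries of Socs3 held 3.68 to 5.31 CPM. The intervals give the range of differences that these libraries do not exclude. They are not a limit of detection, since those of Fos, Dusp1 and Socs3 lay above 0 while these genes did not pass in the edgeR fit.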
